A study of Mus musculus with 3 samples.

Results

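Intergenic peaks that lay outside repeats and within 100 kb of a gene start were examined in chromatin immunoprecipitation sequencing (ChIP-seq) of wild-type primary mouse neural stem cells, cultured from P0 cortex with EGF and bFGF and taken while proliferating. The groups were an immunoprecipitation for the nucleoporin Seh1, an IgG immunoprecipitation (an antibody without a chromatin target) and input chromatin, with 1 library each. The Seh1 and the IgG library each gave a peak list; the input was not analysed here on its own. The members were the peaks that the authors' annotation with HOMER against mm10 (GRCm38) classed as intergenic, to which it gave no repeat, and whose signed distance to the nearest transcription start site (TSS) was above 1000 bp and at most 100000 bp in either direction. They numbered 3089 (of 16113 peaks) for Seh1 and 701 (of 5314 peaks) for IgG, and covered 933.5 kb for Seh1 and 230.1 kb for IgG.

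Seh1 is a subunit of the Y-shaped complex that forms the ring scaffold of the nuclear pore, and of GATOR2, which passes amino acid signals to mTORC1. Some nucleoporins also contact chromatin, at the pore or in the nuclear interior, at promoters and at distal elements. Intergenic sequence around genes holds enhancers, silencers, insulators and unannotated promoters, and a peak list alone does not tell these apart. In neural stem cells, such elements near genes for transcription factors, morphogens and cell cycle regulators are known to control the choice between self-renewal and differentiation. A peak is given here beside the gene of the nearest TSS, which need not be the gene that an element acts on.

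The peak lists carry no peak height, since the deposited score was 0 for every peak, and the number of reads behind each list is unknown. With 1 library per group, every test compares the 2 lists and not the conditions. Neighbouring peaks are not independent, so the p-values are too small, and all intervals cover counting error only. The lists hold no measure of expression, so the labelled cell type could not be checked against its markers.

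Some members lay on gene starts that a fuller annotation lists although the authors' annotation does not. Of the 3089 Seh1 members, 26 (0.842%) touched a promoter window of the RefSeq table, which spans 250 bases before to 50 bases after a TSS, and 17 of them covered the TSS itself. Of the 701 IgG members, 5 (0.713%) touched such a window and 3 covered the TSS. The 26 Seh1 members touched 30 windows, of which 27 belonged to long non-coding RNA (lncRNA) genes and 3 to protein-coding genes. The first 4 windows printed, all of lncRNA genes, were among those with the most bases inside a Seh1 member, and the last had the most bases inside an IgG member. They are printed from the RefSeq promoter table of GRCm38.p6, 5′ to 3′ on the gene's strand, with the bases inside the peak in capitals.
Gm46074: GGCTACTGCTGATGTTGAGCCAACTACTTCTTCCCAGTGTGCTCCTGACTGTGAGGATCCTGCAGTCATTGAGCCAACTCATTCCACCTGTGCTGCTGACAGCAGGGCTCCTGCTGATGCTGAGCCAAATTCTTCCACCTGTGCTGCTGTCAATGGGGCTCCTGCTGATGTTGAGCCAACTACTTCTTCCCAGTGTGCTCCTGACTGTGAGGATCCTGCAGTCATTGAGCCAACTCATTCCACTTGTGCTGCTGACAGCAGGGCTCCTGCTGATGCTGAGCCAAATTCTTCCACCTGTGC
Gm40403: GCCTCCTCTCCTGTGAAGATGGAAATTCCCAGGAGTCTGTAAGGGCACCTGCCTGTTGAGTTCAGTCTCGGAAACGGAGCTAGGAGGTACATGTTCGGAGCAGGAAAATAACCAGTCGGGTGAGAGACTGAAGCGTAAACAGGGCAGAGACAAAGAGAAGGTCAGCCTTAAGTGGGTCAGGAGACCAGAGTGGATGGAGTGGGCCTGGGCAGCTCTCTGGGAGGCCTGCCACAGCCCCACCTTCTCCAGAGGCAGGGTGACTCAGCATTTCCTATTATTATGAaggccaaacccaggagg
Gm30209: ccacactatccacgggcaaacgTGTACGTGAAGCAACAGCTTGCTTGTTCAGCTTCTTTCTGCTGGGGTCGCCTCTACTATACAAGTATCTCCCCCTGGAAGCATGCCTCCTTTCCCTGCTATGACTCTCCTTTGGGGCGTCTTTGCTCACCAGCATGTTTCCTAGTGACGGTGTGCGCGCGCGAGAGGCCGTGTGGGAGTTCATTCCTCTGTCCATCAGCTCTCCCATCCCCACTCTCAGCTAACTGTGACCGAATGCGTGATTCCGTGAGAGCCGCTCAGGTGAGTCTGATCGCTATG
Gm37406: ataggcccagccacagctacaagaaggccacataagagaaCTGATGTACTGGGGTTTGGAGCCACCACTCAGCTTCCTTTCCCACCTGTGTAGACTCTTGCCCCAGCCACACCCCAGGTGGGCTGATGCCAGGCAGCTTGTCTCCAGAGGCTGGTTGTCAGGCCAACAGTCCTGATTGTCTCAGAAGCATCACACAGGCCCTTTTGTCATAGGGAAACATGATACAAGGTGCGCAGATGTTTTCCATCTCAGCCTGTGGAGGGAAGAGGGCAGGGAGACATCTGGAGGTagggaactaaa
Gm46147: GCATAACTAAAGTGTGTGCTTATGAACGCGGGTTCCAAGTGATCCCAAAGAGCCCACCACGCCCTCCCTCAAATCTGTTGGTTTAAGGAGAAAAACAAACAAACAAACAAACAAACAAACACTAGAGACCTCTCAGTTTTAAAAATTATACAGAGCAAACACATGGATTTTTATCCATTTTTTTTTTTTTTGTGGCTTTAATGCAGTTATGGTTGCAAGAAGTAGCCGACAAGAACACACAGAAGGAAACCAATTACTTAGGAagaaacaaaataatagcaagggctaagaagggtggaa

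The Gm46074 window, chr8:20649078-20649377 on the + strand, lay whole inside an 840 bp Seh1 member whose nearest gene in the authors' annotation was Gm21119, with a TSS 34.6 kb away. It held no CpG dinucleotide, and it lies in a part of chromosome 8 with 20 or more IgG peaks per 1 Mb bin; 14 such bins, called crowded bins here, come up again in the results. The Gm40403 window, chr12:40248087-40248386 on the − strand, had 283 of its bases in a Seh1 member of 360 bp that the authors' annotation placed 24.9 kb downstream of the TSS of Gm7008. The Gm30209 window, chr8:124468188-124468487 on the − strand, had 278 bases in a Seh1 member of 320 bp, placed 34.4 kb upstream of the TSS of Pgbd5. This window was the richest in CpG of the Seh1 set, with 16 CpG dinucleotides. The Gm37406 window, chr1:181061825-181062124 on the + strand, held a Seh1 member of 249 bp whole. The IgG example, the Gm46147 window at chr9:92175139-92175438 on the − strand, had 263 bases in a peak of 345 bp near Plscr5.

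The 30 Seh1 windows had a median GC content of 52.0% (38.3 to 60.7%), and the 5 IgG windows 38.0% (29.3 to 41.3%). All 32817 windows of the table had a median of 52.7%, and the windows of genes that are not protein-coding 48.3%. With 5 IgG windows this describes single loci.

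Short motifs were searched on both strands of the windows. AP-1 (TGANTCA) was found in 5 of the 30 Seh1 windows and 1 of the 5 IgG windows, and in 7.81% of all windows. The SOX motif ACAATNG was found in 3 Seh1 windows and no IgG window, beside 8.10% of all windows, and the FOX motif TGTTTAC in 1 Seh1 window and no IgG window, beside 3.65%. The NFI motif TTGGC occurred in 18 Seh1 and 2 IgG windows, beside 46.7% of all windows. E-boxes (CANNTG) occurred in 27 Seh1 and 4 IgG windows, beside 72.3%. The single-copy p53 motif was matched in 5 Seh1 and 2 IgG windows, beside 8.36%, and the CTCF core in none of either, beside 0.302%. NFI motifs and E-boxes are so short that they occur in many windows, and several of the 30 windows overlap each other. A window also holds bases outside the peak. Inside the peak itself, 14 of the 26 Seh1 members held an E-box, 10 an NFI motif and 3 an AP-1 motif.

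The fuller RefSeq gene table also placed part of the members inside genes. The centre of 423 Seh1 members (13.7%) and 63 IgG members (8.99%) lay inside an lncRNA gene of that table, a ratio of 1.52 (1.18 to 1.96). This difference passed Fisher's exact test (two-sided; adjusted exact p = 0.0015 over 40 share comparisons). Of the intergenic positions measured in the same distance range, 8.90% lay inside such a gene. Genes with curated transcripts had been taken out of those positions, whereas members were counted in any lncRNA gene. The shares of members therefore cannot be set against that value, and neither was tested against it. Protein-coding genes of the table held 176 Seh1 members (5.70%) and 50 IgG members (7.13%). Members near Sox5, Enpp6 and Cdh13 lay inside the longer form of the same gene. Over genes of any type the shares were 24.0% for Seh1 and 20.7% for IgG members, which did not pass (adjusted exact p = 0.11). The word intergenic therefore holds for the annotation the authors used, and not for every transcript now listed.

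Members were a larger part of the Seh1 list than of the IgG list. They made up 19.2% (18.6 to 19.8%) of Seh1 peaks and 13.2% (12.3 to 14.1%) of IgG peaks, a ratio of 1.45 (1.35 to 1.57; Fisher's exact test, adjusted exact p = 2.1e-23). Of the intergenic peaks alone, members were 35.3% of 8749 in the Seh1 list and 21.1% of 3323 in the IgG list (ratio 1.67, adjusted exact p = 1e-51). The 3 other intergenic classes went the other way. Repeat peaks within 100 kb were 16.6% of Seh1 and 20.7% of IgG peaks, non-repeat peaks beyond 100 kb were 7.38% of Seh1 and 11.8% of IgG peaks, and repeat peaks beyond 100 kb were 11.2% of Seh1 and 16.9% of IgG peaks.

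**Figure D1:**
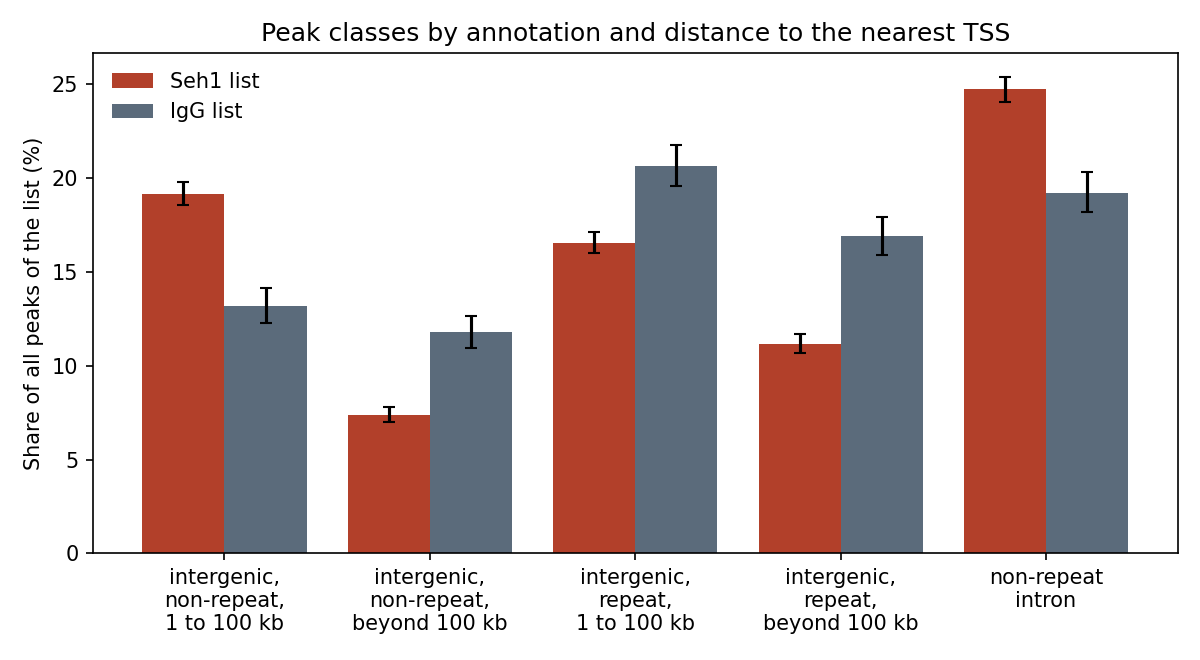
Share of all peaks of the Seh1 list (left bar) and the IgG list (right bar) in each class, in percent, with 95% exact binomial intervals. Non-repeat intergenic peaks from 1 to 100 kb and non-repeat intron peaks are larger parts of the Seh1 list, whereas the other 3 intergenic classes are larger parts of the IgG list.

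The distance limit and the repeat limit of the rule were then taken one at a time. There were 4.41 Seh1 members for each IgG member. The number was 1.90 for non-repeat intergenic peaks beyond 100 kb, 2.43 for repeat intergenic peaks within 100 kb and 2.01 for repeat intergenic peaks beyond it. Against each of these classes the members had the larger Seh1 share of the 2 lists (81.5% for members, against 65.5%, 70.9% and 66.7%), and each difference passed Fisher's exact test, with adjusted exact p-values of 3.2e-37, 8.3e-27 and 2.4e-40. Non-repeat intron peaks stood closest, at 3.90 Seh1 peaks for each IgG peak. The 81.5% of members and the 79.6% of non-repeat intron peaks that came from the Seh1 list did not differ past the threshold (ratio 1.02, 1.00 to 1.05; adjusted exact p = 0.052).

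The distance limits left little at the inner edge. No non-repeat intergenic peak of either list lay within 1000 bp of a TSS, so the lower limit removed none. Upstream this was fixed in advance, because HOMER classes peaks up to 1000 bp upstream of a TSS as promoter peaks. The Seh1 members nearest to it were those of Scgb3a1 at 1005 bp and Lrrc75b at 1020 bp, and the nearest IgG members were those of Vmn1r142 at 1021 bp and Lrp2bp at 1158 bp. At the outer limit the last Seh1 members were those of Wdr11 at 99894 bp and Ehbp1 at 99904 bp, and the first peaks outside were those of Ntm at 100066 bp and Gm4791 at 100103 bp. The last IgG members were those of Zfp386 at 99808 bp and Gnaz at 99859 bp, and the first outside those of Mir344i at 100076 bp and Csl at 100202 bp.

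Inside these limits, Seh1 members sat at a median of 27604 bp from the TSS (quartiles 12750 and 51467 bp) and IgG members at 33111 bp (14334 and 61077 bp). Raw counts by distance depend on how much intergenic sequence there is at each distance. Counts were therefore divided by the length of intergenic sequence, which came to 663 Mb for the whole range and leaves out chromosome 18. Repeats were not removed from that length, so the densities are too low by the repeat content.

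Beyond 10 kb, Seh1 peaks thinned out with distance from gene starts. The density of non-repeat Seh1 peaks was 3.55 per Mb at 1 to 5 kb, 5.62 per Mb (95% Poisson interval 5.06 to 6.22) at 5 to 10 kb, 5.38 at 10 to 25 kb, 4.62 at 25 to 50 kb, 3.65 at 50 to 100 kb and 1.99 (1.87 to 2.11) at 100 to 500 kb. The first bin and the last were the lowest, and the interval of the 5 to 10 kb bin lay above that of both; the bins were not tested against each other. The density of non-repeat IgG peaks was 1.07, 0.866, 1.02, 0.951, 1.12 and 0.885 per Mb in the same bins. These stayed between 0.866 and 1.12, with no order by distance.

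**Figure D2:**
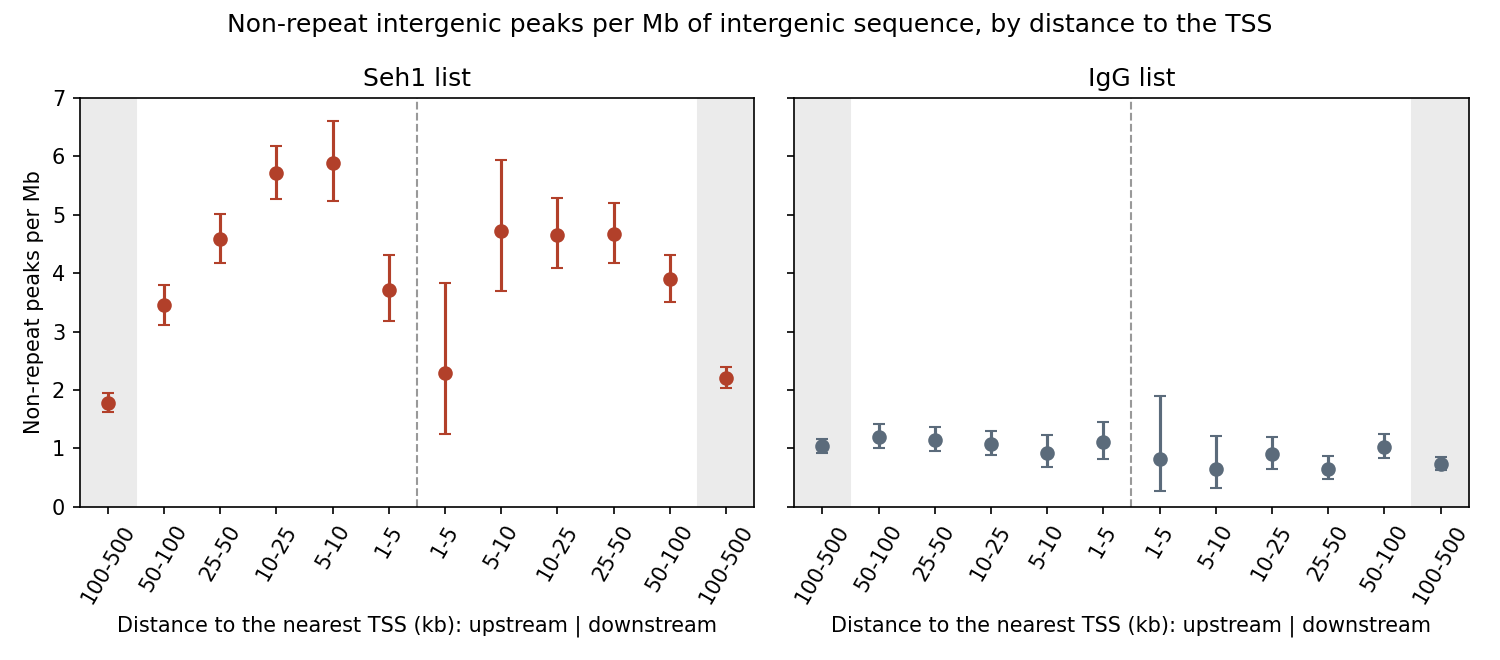
Non-repeat intergenic peaks per Mb of intergenic sequence against distance to the nearest TSS in kb, upstream left and downstream right of the dashed line, for the Seh1 list (left panel) and the IgG list (right panel), with 95% exact Poisson intervals. The shaded bins lie outside the 100 kb limit. Seh1 densities peak upstream at 5.89 per Mb from 5 to 10 kb and fall to 1.78 beyond 100 kb, whereas IgG densities stay between 0.655 and 1.20.

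The profile was given for each side of the gene start. Upstream, Seh1 members numbered 3.72 per Mb at 1 to 5 kb, 5.89 at 5 to 10 kb, 5.71 at 10 to 25 kb, 4.58 at 25 to 50 kb and 3.45 at 50 to 100 kb. Downstream, where intergenic sequence begins past the gene's end, they numbered 2.28, 4.72, 4.66, 4.67 and 3.90 per Mb. Within 100 kb, the downstream density was lowest at 1 to 5 kb, whereas the upstream density was lowest at 50 to 100 kb. The upstream density fell past 25 kb, whereas the downstream density was level from 5 to 50 kb. The sides were not tested against each other. The upstream density at 5 to 10 kb was 1.58 times that at 1 to 5 kb, and between 1.57 and 1.68 times with repeat peaks included, with wider peaks only or without crowded bins. Seh1 peaks with repeats included had 10.7 per Mb at 5 to 10 kb and 4.47 per Mb at 100 to 500 kb.

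Counted over members alone, the distance differed between the lists less clearly. From 5 to 25 kb lay 40.4% of Seh1 members and 32.4% of IgG members (ratio 1.25, 1.11 to 1.40; adjusted exact p = 0.00024). Beyond 50 kb lay 26.2% of Seh1 and 34.4% of IgG members (ratio 0.763; adjusted exact p = 7.4e-05), but 26.2% of Seh1 and 30.6% of IgG members once the crowded bins were left out, which no longer passed (adjusted exact p = 0.06). Within 10 kb lay 18.4% of Seh1 and 17.0% of IgG members (ratio 1.08, 0.905 to 1.30; adjusted exact p = 0.50), beside 17.9% of the intergenic sequence. That ratio turned to 0.959 without the crowded bins and to 0.750 with a limit of 5 kb, neither of which passed. It passed Fisher's exact test at 1.34 among peaks above the minimum width (adjusted exact p = 0.039). With a limit of 25 kb the shares were 46.7% for Seh1 and 40.8% for IgG members, which also passed (ratio 1.15, adjusted exact p = 0.01). Upstream of the TSS lay 66.2% of Seh1 and 70.3% of IgG members, beside 64.3% of the sequence (ratio 0.941; adjusted exact p = 0.064). Without the crowded bins the upstream shares were 66.4% for Seh1 and 73.2% for IgG members, which passed (ratio 0.907; adjusted exact p = 0.0038).

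Seh1 members were sparsest where genes were fewest, and most frequent at intermediate gene numbers rather than at the highest. With at most 3 protein-coding genes within 500 kb there were 1.95 Seh1 members per Mb (1.70 to 2.21), with 4 to 7 genes 4.04 per Mb, with 8 to 14 genes 6.08 per Mb (5.72 to 6.44), and with 15 genes or more 5.05 per Mb (4.73 to 5.38). IgG members numbered 1.37, 1.01, 1.15 and 0.686 per Mb in the same classes. The Seh1 interval at 15 genes or more lay below that at 8 to 14 genes. The IgG value was the highest of its 4 in the sequence with the fewest genes. The classes were not tested against each other. The median Seh1 member had 10 protein-coding genes within 500 kb (quartiles 6 and 16), the median IgG member 7 (4 and 12), and the median position of the sequence 8 (5 and 15).

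**Figure D3:**
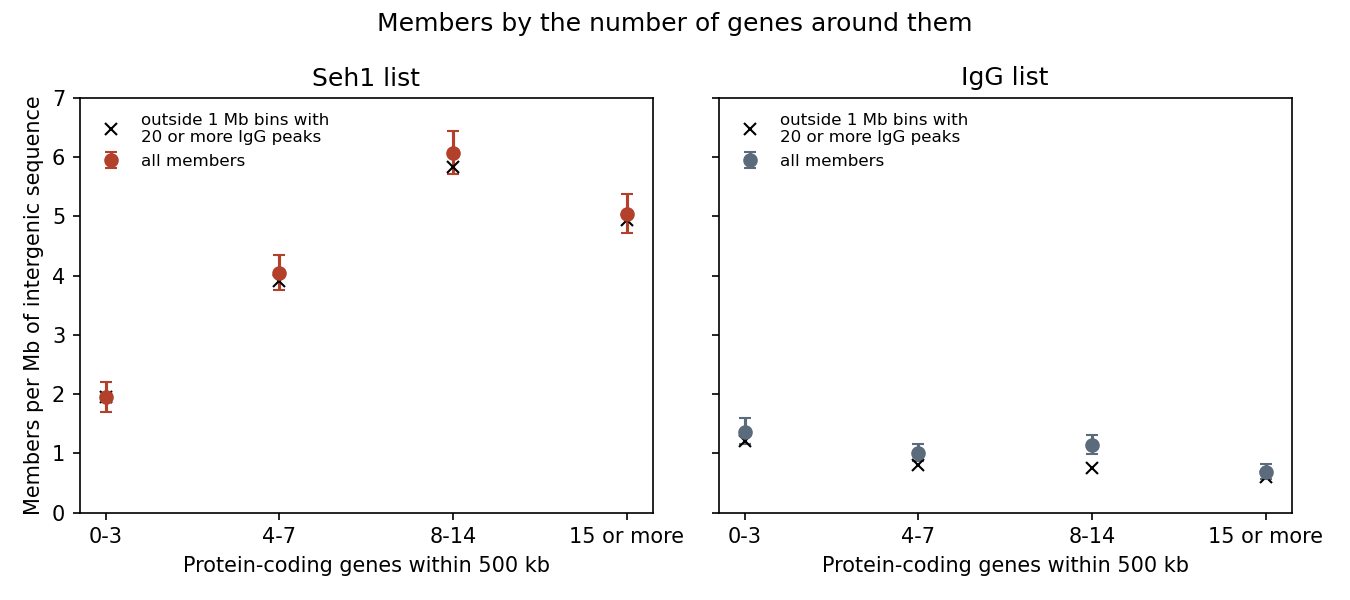
Members per Mb of intergenic sequence from 1 to 100 kb, by the number of protein-coding genes within 500 kb, for the Seh1 list (left panel) and the IgG list (right panel). Points are all members with 95% exact Poisson intervals, and crosses leave out 1 Mb bins with 20 or more IgG peaks. Seh1 densities run between 1.95 and 6.08 per Mb, lowest with at most 3 genes, and IgG densities between 0.686 and 1.37, highest there.

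The 14 crowded bins, each of 1 Mb with 20 or more IgG peaks, held 90 Seh1 members (2.91%) and 145 IgG members (20.7%). Over the whole lists they held 1.93% of Seh1 peaks and 11.8% of IgG peaks. They include gene families such as the Prl2c cluster on chromosome 13, with 12 IgG members given to Prl2c3 and 9 to Prl2c2, and the stretch of 4932411N23Rik on X, with 18. Results that lean on these bins are given with and without them. The bins were defined by their number of IgG peaks, so leaving them out removes grouped IgG members by construction. No filter on reads that map to several places is stated in the sources used here, and its part in the crowded bins and in the repeat classes was not tested.

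Chromosomes were one such result. The shares of members differed past the threshold for 6 of 20 chromosomes. Chromosome 11 held 198 Seh1 members (6.41%) and 20 IgG members (2.85%; adjusted exact p = 0.00041), chromosome 9 held 6.28% of Seh1 and 3.57% of IgG members (adjusted exact p = 0.012) and chromosome 12 held 5.37% of Seh1 and 3.28% of IgG members (adjusted exact p = 0.044). The Seh1 share was the lower one on chromosome 4, at 5.41% for Seh1 and 8.13% for IgG (adjusted exact p = 0.017), on chromosome 13, at 5.18% for Seh1 and 8.42% for IgG (adjusted exact p = 0.004), and on X, at 1.04% for Seh1 and 3.57% for IgG (adjusted exact p = 3.1e-05). Without the crowded bins the shares were adjusted over these 20 comparisons alone, and not over the 40 used with the bins. None then passed Fisher's exact test (lowest adjusted exact p = 0.10), although 4 had an unadjusted p under 0.05. The change of calls thus cannot be set apart from the change of adjustment. Outside these bins, X held 32 Seh1 members (1.07%) and 7 IgG members (1.26%), and chromosome 11 held 6.60% of Seh1 and 3.60% of IgG members.

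Per Mb of intergenic sequence, Seh1 members numbered 8.48 per Mb (7.39 to 9.68) on chromosome 8, 7.66 (6.37 to 9.13) on chromosome 15 and 6.05 (5.24 to 6.96) on chromosome 11, the 3 highest values. The order of the first pair turned with the crowded bins. Outside them, 171 of the 218 Seh1 members of chromosome 8 were left, at 6.93 per Mb (5.93 to 8.05), whereas chromosome 15 had no crowded bin and kept its 7.66. The intervals of the 2 chromosomes overlapped with and without these bins. X had 0.625 Seh1 members per Mb (0.427 to 0.882), below the 3.35 of chromosome 10, which was the lowest of the autosomes measured. IgG members numbered 0.488 per Mb on X (0.316 to 0.721), close to the 0.493 of chromosome 19 (0.213 to 0.971). Outside the crowded bins, X had 0.137 IgG members per Mb (0.0551 to 0.283), and chromosome 19 kept its 0.493. Y had 1 member in each list.

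**Figure D4:**
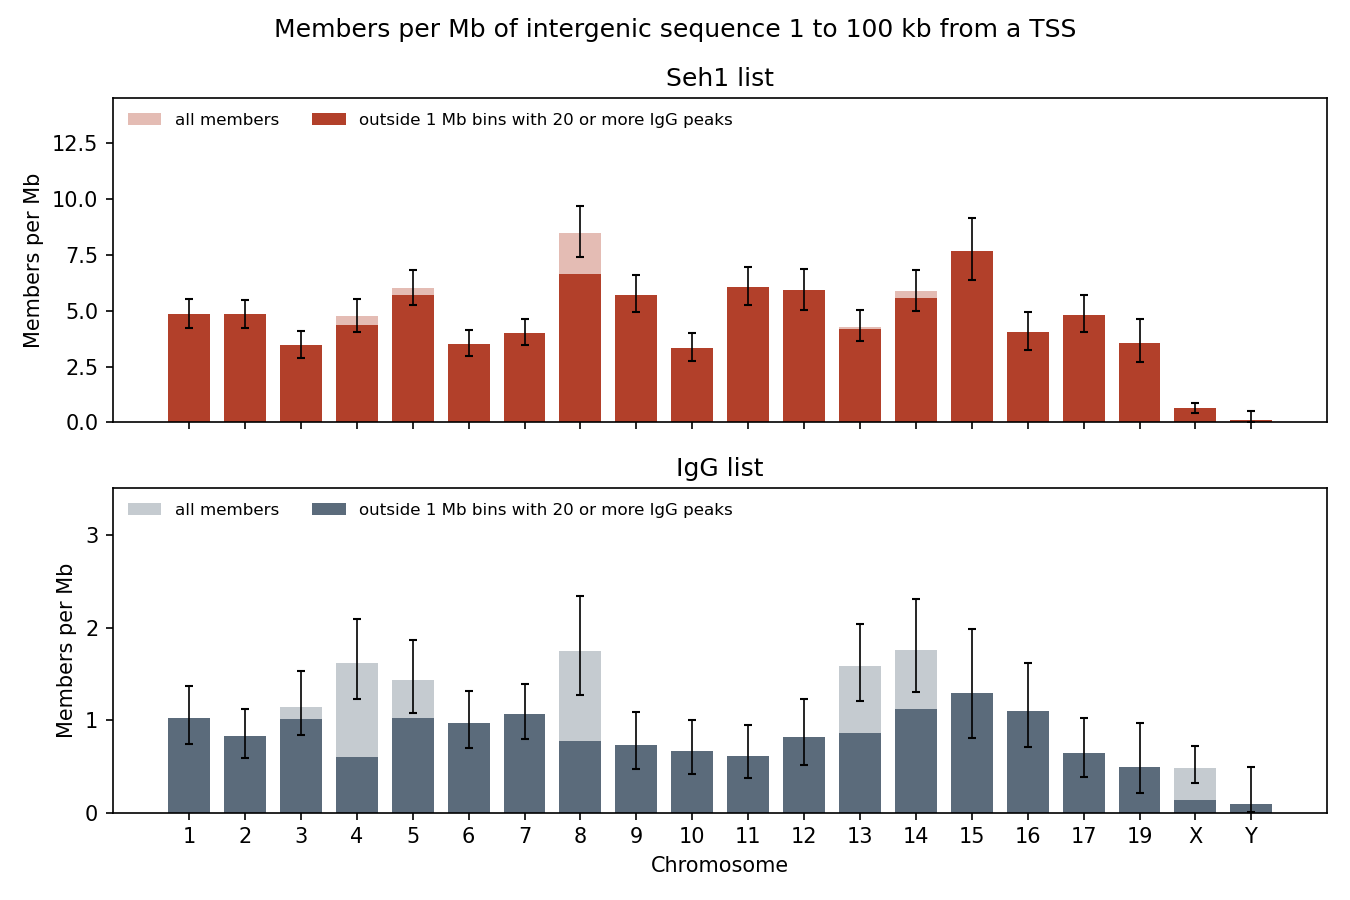
Members per Mb of intergenic sequence from 1 to 100 kb on each chromosome (18 not included), for the Seh1 list (top) and the IgG list (bottom), each on its own axis from 0, with 95% exact Poisson intervals. Pale bars are all members and dark bars those outside 1 Mb bins with 20 or more IgG peaks, divided by the same full length. X lies below every autosome shown for Seh1 members, but close to chromosome 19 for all IgG members. The pale part shows above the dark one for IgG members on chromosomes 3, 4, 5, 8, 13, 14 and X.

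Members were short in both lists, with a median width of 270 bp for Seh1 (243 to 1225 bp) and 276 bp for IgG (236 to 1307 bp). Fewer Seh1 members sat at the minimum width of their list, 25.6% of Seh1 against 35.5% of IgG members (ratio 0.721; adjusted exact p = 1.2e-06). Fewer were also wider than 400 bp, 11.0% of Seh1 against 17.8% of IgG members (ratio 0.615; adjusted exact p = 6.8e-06). Without the crowded bins the shares above 400 bp were 10.3% for Seh1 and 11.0% for IgG, and this difference no longer passed (adjusted exact p = 0.69). Among the Seh1 classes, members had the largest share above 400 bp. The others had 9.08% (non-repeat intergenic beyond 100 kb), 8.17% and 7.10% (repeat intergenic within and beyond 100 kb) and 9.96% (non-repeat intron). IgG members also had the largest share, 17.8%, beside 9.74%, 16.7%, 11.7% and 11.4% of the same IgG classes in that order. The classes were not tested against each other.

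The widest Seh1 members that did not overlap an IgG peak fell into 2 kinds of place. Of the 10, 4 lay in the crowded part of chromosome 8, near the pseudogene 6820431F20Rik (1225 and 759 bp) and near Gm21119 (1121 and 840 bp). Outside it, the widest lay at chr1:23556261-23557022 near Gm28822 (762 bp), at chr5:119178544-119179296 near Gm7538 (753 bp), at chr15:59784100-59784841 near Gm19510 (742 bp), at chr10:78111814-78112551 near Icosl (738 bp), at chr2:93544659-93545391 near Cd82 (733 bp) and at chr1:88223580-88224301 near Mroh2a (722 bp). The Icosl peak had the centre of an IgG peak 0.893 kb away, whereas the nearest IgG peak lay 268.6 kb or more from each of the other 5. Icosl encodes a ligand of the T-cell costimulator ICOS, and Cd82 a tetraspanin of the cell surface. These 2 peaks lay 42.8 and 82.1 kb from the TSS given by the authors' annotation. Another TSS of the RefSeq table lay nearer to each, 19302 bp from the Icosl peak and 35446 bp from the Cd82 peak. The widest IgG members were those of Gm17019 (1307 bp), 4932411N23Rik (1250 bp), 1700020D14Rik on Y (1198 bp) and 4933402N22Rik (1109 and 1106 bp).

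Hardly any member was shared between the lists. Of the 3089 Seh1 members, 11 overlapped an IgG peak by at least 1 bp, which is 0.356% (0.178 to 0.636%), near the 0.372% of all Seh1 peaks. Of the 701 IgG members, 13 (1.85%, 0.991 to 3.15%) overlapped a Seh1 peak, beside 1.13% of all IgG peaks, which lies inside that interval. The crowded bins held 9 of the 11 Seh1 members, among them 3 near Gm17019 on chromosome 5 and 3 near Gm21119 on chromosome 8. Outside them, the member 47.9 kb upstream of Smpx on X (334 bp) was covered whole by an IgG peak, and the one near C130026I21Rik on chromosome 1 shared 177 of its 243 bp with one. The median Seh1 member lay 301.6 kb from the nearest IgG peak, and the median over all Seh1 peaks was 259.8 kb.

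The distance between neighbouring members was compared between the lists, and the direction of the difference depended on the scale and on the crowded bins. Another member of the same list lay within 10 kb for 17.8% of Seh1 and 24.4% of IgG members (ratio 0.729; adjusted exact p = 0.00024). Of the 549 such Seh1 members 63 lay in the crowded bins, and of the 171 such IgG members 108. Without these bins, which were picked for their many IgG peaks, the shares were 16.2% for Seh1 and 11.3% for IgG (ratio 1.43; adjusted exact p = 0.0081). With 50 kb in place of 10 kb they were 42.1% for Seh1 and 31.8% for IgG (ratio 1.32; adjusted exact p = 2e-06). A longer list gives closer neighbours at any clustering, so these shares cannot be set apart from list length.

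The 3089 Seh1 members were given to 2339 genes and the 701 IgG members to 518. Most genes had a single one, 1815 genes (77.6%) for Seh1 and 454 (87.6%) for IgG, and 12 Seh1 genes and 11 IgG genes had 5 or more. The nearest gene was protein-coding for 76.6% of Seh1 and 77.6% of IgG members with a gene (ratio 0.987, 0.944 to 1.03; adjusted exact p = 0.69). The largest Seh1 numbers again fell in crowded bins or on an unplaced contig, with 25 members for Gm21119, where IgG had 14, 10 for LOC100041034 on the contig, where IgG had 2, and 6 for Gm21944.

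A further 9 genes had 5 Seh1 members each, of which 4 were protein-coding genes outside the crowded bins. Irf4, a transcription factor of lymphocytes and melanocytes, had 3 members 32.3, 33.1 and 36.8 kb upstream and 2 members 27.8 and 28.8 kb downstream, in a group on either side of the TSS. Sox14, a SOX transcription factor of interneuron lineages, had members 17.7 and 72.8 kb upstream and 22.1, 67.8 and 75.8 kb downstream. Tfcp2l1, a transcription factor of naive pluripotent cells, had 1 member 4.87 kb upstream and 4 members between 62.2 and 83.9 kb downstream. Dact2, a modulator of Wnt and TGF-beta signalling, had members 24.0 and 34.9 kb upstream and 18.7, 29.8 and 59.1 kb downstream. All 5 lay nearer to another TSS of the RefSeq table, 1784 to 24953 bp away, and both upstream ones lay inside another gene of that table. The others were 1700092K14Rik, 4930467E23Rik, 6030471H07Rik, Gm5091 and Pisd-ps3, of which 4930467E23Rik and Pisd-ps3 lay in crowded bins. On the IgG side, Apba2 on chromosome 7 and 4932411N23Rik had 18 members each and no Seh1 member.

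CpG islands were rare among members. The authors' annotation named one for 6 Seh1 members (of 11 in the whole Seh1 list) and for no IgG member, where 0 of 701 allows a share of up to 0.428%. The 6 lay near Csf2ra (38.5 kb upstream), Chst11 (31.0 kb upstream), Hoxb13 (18.7 kb upstream), Prl2c5 (50.1 kb downstream), Gm26689 (3.11 kb upstream of a TSS that lies off the gene's place in the RefSeq table) and 4933407K13Rik (40.9 kb downstream). Chst11 encodes a chondroitin sulfotransferase and Hoxb13 a Hox transcription factor of the posterior body.

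The gene that the series title puts under Seh1 control, p21, had no Seh1 member. At Cdkn1a, which encodes the CDK inhibitor p21, the Seh1 peak (chr17:29098401-29098866, 466 bp) lay in exon 2, 4.86 kb downstream of the TSS, and so outside the intergenic class. An IgG peak was a member there, at chr17:29102865-29103149 (285 bp), 9.24 kb downstream of the TSS. The 2 peaks did not overlap, and their centres were 4.37 kb apart. At Seh1l, the gene of Seh1 itself, a Seh1 peak lay in exon 4 and an IgG peak in an intron, and neither list had a member.

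Of the 21779 protein-coding genes, 1830 (8.40%) were the nearest gene of at least 1 Seh1 member and 399 (1.83%) of at least 1 IgG member. Both held for 70 genes, which were 3.83% of the Seh1 genes and 17.5% of the IgG genes. These shares are the background for 11 lists with 380 genes of pathways and cell types. Across the lists, 50 genes had a Seh1 member, and none of these had an IgG member. The interval of each list's Seh1 share held the background of 8.40%, except that of developmental signalling. The share of genes also depends on how much intergenic sequence surrounds them, so a density per Mb is given beside the counts. It was taken over the genes found in the promoter table. Over all genes it was 4.51 per Mb for Seh1 and 1.02 per Mb for IgG. Each list's density covers only its genes with measured sequence, 14 to 34 per list, and rests on 1 to 8 Seh1 members. It can therefore leave out members that the gene counts include. Within 25 kb of the TSS, 1023 protein-coding genes (4.70%) had a Seh1 member. At that distance 21 listed genes had one, and the interval of each of the 11 lists, developmental signalling included, held 4.70%. The intervals were not adjusted for the number of lists. The nearest Seh1 members given below for Fgfr1, Eomes, Nkx6-2, Pmaip1, Mdm4, Cbx2 and Ahctf1 lay inside another gene of the RefSeq table. Those of Notch2, Hey2, Rbfox1, Map2, Mobp, Pmaip1, Mdm4, Gadd45a, Hdac4, Grin2a and Twist1 had the minimum width of 243 bp. Across all Seh1 members, 25.6% had that width.

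**Figure D5:**
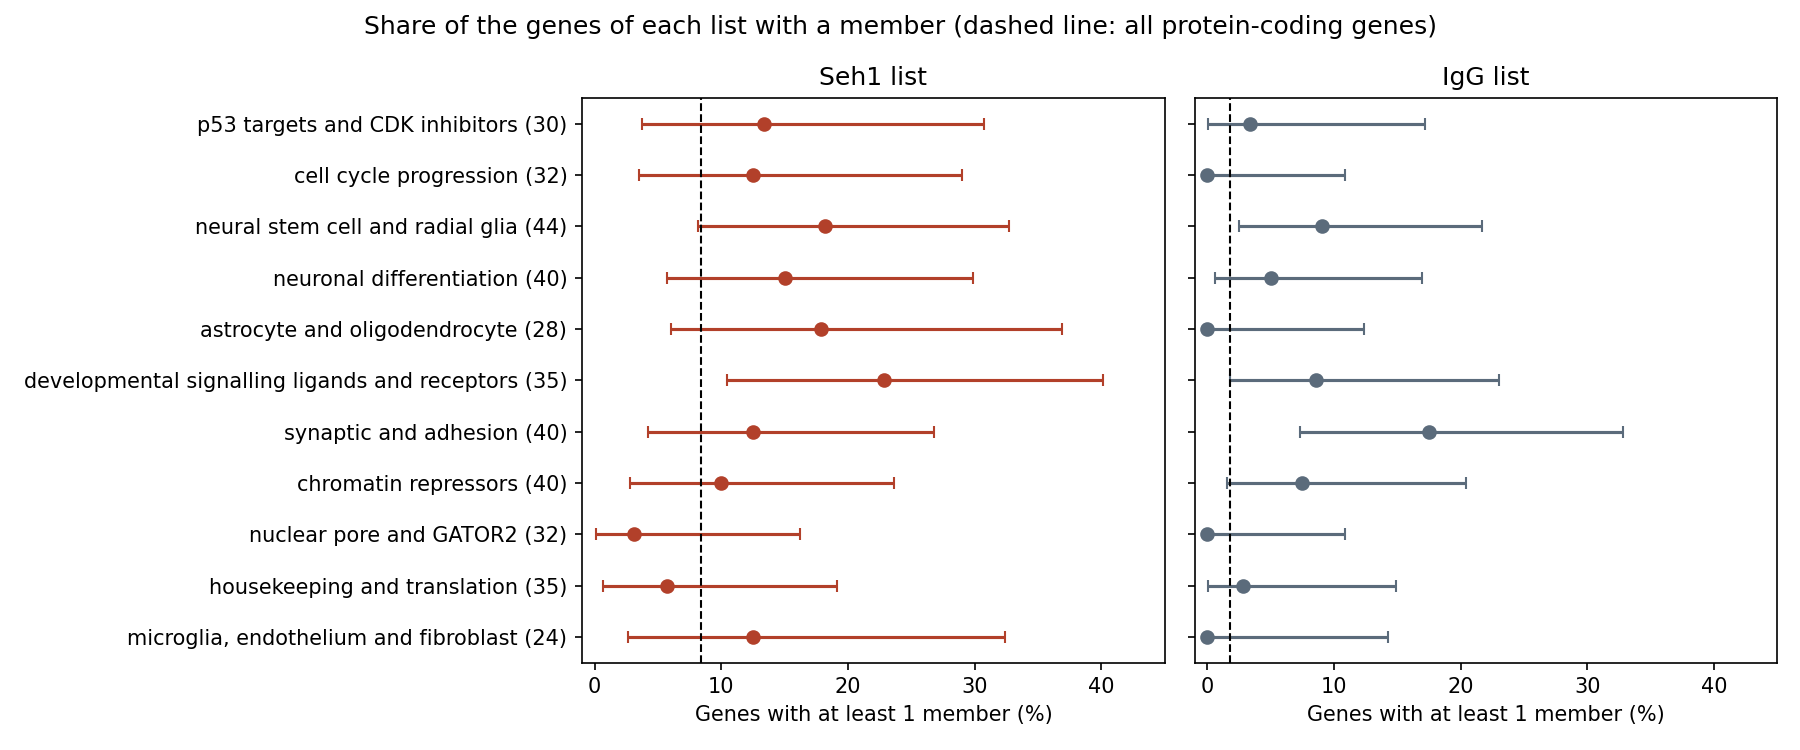
Percent of the genes of each list (number of genes in brackets) with at least 1 member, for the Seh1 list (left panel) and the IgG list (right panel), with 95% exact binomial intervals. The dashed lines mark the share of all protein-coding genes, 8.40% for Seh1 and 1.83% for IgG. The developmental signalling list has the highest Seh1 share, 22.9%, and the synaptic list the highest IgG share, 17.5%.

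Of 35 developmental signalling ligands and receptors, 8 had a Seh1 member (22.9%, 10.4 to 40.1%) and 3 an IgG member. The nearest belonged to Wnt7a (6.21 kb upstream, chr6:91417400-91417719), a Wnt ligand of the developing brain and its vessels, Egf (11.6 kb upstream, chr3:129766792-129767129), the ligand of the receptor that the culture medium stimulates, Bmp7 (13.7 kb upstream, chr2:172953878-172954213), a BMP ligand, and Wnt5a (24.5 kb downstream, chr14:28535758-28536065), a ligand of non-canonical Wnt signalling. Per Mb of flanking sequence the list had 4.50 Seh1 members (1.46 to 10.5), beside the 4.51 of all genes. This density rests on 5 Seh1 members over 22 of the 35 genes, and so does not cover the same genes as the share. Within 25 kb, 4 of the 35 genes had a Seh1 member (11.4%, 3.20 to 26.7%). The interval of the list lay above the background for its share of genes within 100 kb, and held the background for the share within 25 kb and for the density.

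Of 44 neural stem cell and radial glia genes, 8 had a Seh1 member (18.2%, 8.19 to 32.7%) and 4 an IgG member. Hes1, the Notch effector that keeps progenitors undifferentiated, had its nearest member 18.6 kb downstream (chr16:30083759-30084072, 314 bp). Notch2, a Notch receptor, had one 30.8 kb upstream, Fgfr1, a receptor for the bFGF of the medium, one 35.1 kb upstream, and Hey2, another Notch effector, one 51.0 kb upstream. Within 25 kb, 1 gene of the list had a member (2.27%). The density was 4.65 per Mb (2.01 to 9.17).

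Of 40 neuronal differentiation genes, 6 had a Seh1 member (15.0%) and 2 an IgG member. Eomes, the transcription factor of intermediate progenitors, had a member of 480 bp 21.1 kb upstream (chr9:118456856-118457335). Rbfox1, a neuronal splicing regulator, had one 31.6 kb, Map2, a dendritic microtubule protein, one 37.6 kb and Myt1l, a repressor of non-neuronal genes, one 64.9 kb upstream. Within 25 kb, 1 gene of the list had a member (2.50%). The density was 3.22 per Mb (1.18 to 7.02).

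Of 28 astrocyte and oligodendrocyte genes, 5 had a Seh1 member (17.9%) and none an IgG member. Mobp and Mbp, both of which encode myelin proteins, had theirs 6.97 and 16.0 kb upstream. Nkx6-2 and Olig2, transcription factors of the oligodendrocyte lineage, had theirs 10.8 kb upstream (435 bp) and 17.6 kb downstream. Within 25 kb, 4 genes of the list had a member (14.3%, 4.03 to 32.7%). The density was 5.27 per Mb (1.44 to 13.5).

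Of 32 cell cycle genes, 4 had a Seh1 member (12.5%) and none an IgG member, and 3 had one within 25 kb of the TSS (9.38%). Mki67, which encodes the Ki-67 antigen of cycling cells, had one 2.69 kb upstream (chr7:135718911-135719222, 312 bp). Top2a, a topoisomerase of mitotic chromosomes, had one 6.53 kb upstream (chr11:99030589-99030855), and Cdk1, the mitotic kinase, one 12.2 kb upstream (chr10:69364902-69365283, 382 bp). Ccnd1, which encodes cyclin D1, had its nearest 48.1 kb upstream. The density was 7.20 per Mb, with an interval of 2.34 to 16.8 that holds the value of all genes.

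Of 30 p53 targets and CDK inhibitors, 4 had a Seh1 member (13.3%) and 1, Cdkn1a, an IgG member. Gadd45g, a stress-induced growth arrest gene, had one 14.9 kb upstream, Pmaip1, which encodes the death protein Noxa, one 41.4 kb upstream, Mdm4, a p53 inhibitor, one 60.8 kb downstream and Gadd45a one 97.8 kb upstream. Within 25 kb, 1 gene of the list had a member (3.33%). The density was 3.90 per Mb (0.805 to 11.4).

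Of 40 chromatin repressors, 4 had a Seh1 member (10.0%) and 3 an IgG member. Cbx2, a Polycomb subunit, had a member of 551 bp 5.44 kb upstream (chr11:119017304-119017854), Rcor1, the corepressor CoREST, one 13.2 kb upstream, Hdac4, a histone deacetylase, one 22.9 kb upstream and Jarid2, a partner of Polycomb complex PRC2, one 54.1 kb upstream. Within 25 kb, 3 genes of the list had a member (7.50%), and the density was 4.65 per Mb (1.27 to 11.9). Of 32 nuclear pore and GATOR2 genes, 1 had a Seh1 member (3.13%, 0.0791 to 16.2%) and none an IgG member. It was Ahctf1, which encodes the nucleoporin ELYS, with a member 72.9 kb upstream, and the density was 2.66 per Mb (0.0674 to 14.8).

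Of 40 synaptic and adhesion genes, 5 had a Seh1 member (12.5%, 4.19 to 26.8%) and 7 an IgG member (17.5%, 7.34 to 32.8%). The IgG interval lay above the IgG background of 1.83%, as did that of the neural stem cell list (2.53 to 21.7%). Grid1, a glutamate receptor gene of the delta type, had a Seh1 member 5.58 kb upstream, Grin2a, an NMDA receptor subunit gene, one 37.9 kb, Ntm, a neuronal adhesion gene, one 47.9 kb and Gria1, an AMPA receptor subunit gene, one 48.5 kb upstream. Within 25 kb, 1 gene of the list had a Seh1 member (2.50%). The Seh1 density was 1.44 per Mb (0.174 to 5.20). It rests on 2 Seh1 members over 26 of the 40 genes and leaves out the list's other Seh1 members.

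The housekeeping list and the list of cell types outside the neural lineage served as comparison. Of 35 housekeeping and translation genes, 2 had a Seh1 member (5.71%) and 1 an IgG member. One of these members was given to Ppia, a cyclophilin gene, at chr9:96899832-96900303, on a chromosome where the RefSeq table does not place the gene. Without peaks whose TSS is misplaced, 1 gene of the list had a Seh1 member. The density was the highest of the 11 lists, at 8.38 per Mb (1.73 to 24.5), but all 3 members behind it had a misplaced TSS. Of 24 genes of microglia, endothelium and fibroblasts, 3 had a Seh1 member (12.5%) and none an IgG member. Vwf and Cldn5, both endothelial genes, had theirs 11.0 and 25.6 kb upstream, and Twist1, a mesenchymal transcription factor, 34.3 kb downstream. Within 25 kb, 1 gene of the list had a member (4.17%), and the density was 3.55 per Mb (0.731 to 10.4).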

How the data were processed

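ChIP-seq libraries of mouse neural stem cells were compared as peak lists, 1 library per group. HOMER annotated the deposited peaks against mm10, per the file headers; the submitters' processing notes name Bowtie2 and HOMER without versions, and list the builds hg18 and hg38, which the mouse genes do not match. The deposited score was 0 for every peak. For the peak caller, its threshold, the read depth and any filter on reads that map to several places nothing is given in the sources used here. Members and gene lists were chosen with earlier results of these data known.

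Fisher's exact test (two-sided) compared shares between the 2 lists, adjusted by Benjamini-Hochberg over 40 comparisons at 0.05, of which 19 passed. The members' shares of non-repeat intergenic peaks and of intergenic peaks within 100 kb hold the same counts as a class comparison each. The 40 and the 19 therefore count these results again. Chromosome shares without the crowded bins were adjusted over the 20 chromosomes alone. Shares carry 95% Clopper-Pearson intervals, ratios log-scale intervals, and the limit for a count of 0 was set by 3 counts. The shares from 5 to 25 kb, beyond 50 kb and inside lncRNA genes were chosen after seeing the data. The share test was checked on simulated independent counts, so this check does not cover the dependence between neighbouring peaks.

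Intergenic length was measured on a 100 bp grid outside curated genes of the RefSeq table (GRCm38.p6, the same assembly as mm10) on 20 chromosomes. The TSS of 2167 of 2258 Seh1 members (96.0%) lay within 10 bp of its place in the promoter table. Gene identifiers matched that gene table for 3059 of 3079 Seh1 and 679 of 688 IgG members. For 31 Seh1 and 13 IgG members the TSS lay off the gene.

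Named were Cdkn1a and Seh1l, the 10 widest Seh1 members without IgG overlap, the 5 widest IgG members, the 5 genes with most Seh1 members (with ties), up to 10 Seh1 members in an overlap or a CpG island, the peaks at each limit, and up to 4 genes per list. Other genes were named after their values were seen. Base composition and motifs of whole members, which need genome sequence, were not analysed here. Python 3.11.15, pandas 2.3.3 and scipy 1.17.1 were used. Members near 2 of the genes that these rules pick are not reported here.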

Additional observations from a re-analysis of the deposited data

How the results depend on the processing

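No paired analysis was possible because each group had 1 library. Over 68 alternatives, 47 left a result unchanged in direction and call (for counts, within 1.5 times). The ratio of member shares stayed between 1.43 and 1.63. Without the 14 bins of 1 Mb with 20 or more IgG peaks, the ratio of the shares within 10 kb was 0.959 in place of 1.08, of those beyond 50 kb 0.856 (adjusted exact p = 0.06), of those upstream 0.907 (adjusted exact p = 0.0038), of those wider than 400 bp 0.936 (adjusted exact p = 0.69) and of those with a neighbour within 10 kb 1.43, and 2 Seh1 members overlapped an IgG peak. The within-10-kb ratio was 1.34 among peaks above the minimum width (Fisher's exact test, adjusted exact p = 0.039). With a limit of 5 kb it was 0.750 (adjusted exact p = 0.09), and with 25 kb 1.15, which passed (adjusted exact p = 0.01). The neighbour ratio at 50 kb was 1.32. With 1 member per gene the protein-coding ratio was 1.02 (adjusted exact p = 0.55). With centres within 1 kb, 25 Seh1 members met an IgG peak. Within 25 kb, 21 listed genes had a Seh1 member in place of 50. The cause of these shifts was not tested, apart from the smaller sets that each alternative leaves. The alternatives for the shares from 5 to 25 kb, beyond 50 kb and inside lncRNA genes, for the densities, and without unplaced contigs or misplaced start sites were chosen after seeing the data. Unknown read depth limits every share: a deeper library could list peaks of other classes.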
